A study of Mus musculus with 6 samples.

Results

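The LIM-homeodomain genes carrying the Lhx symbol, Lhx1, Lhx2, Lhx3, Lhx4, Lhx5, Lhx6, Lhx8 and Lhx9, were taken by name from the 53801 genes with a count. All 8 were present in the count tables, and 4 of them, Lhx2, Lhx6, Lhx8 and Lhx9, had enough counts for the test across genes. Maxillary processes were dissected at embryonic day 12.5 (E12.5) from 3 WT samples (strain labelled C57BL/6, given as C57BL/6J in the protocol) and 3 samples of wnt1cre; Rosa26Dlx2/- embryos (Dlx2OE), and poly-A RNA was sequenced. In Dlx2OE embryos a Flag-tagged Dlx2 cassette, driven by the CAG promoter from the Rosa26 locus behind a loxP-flanked stop, is switched on by Cre under the Wnt1 promoter. The authors describe the overexpression as specific to neural crest derivatives, which include the mesenchyme of the process. Recombination is not expected in its epithelium, endothelium and skeletal muscle, but was not measured in these libraries for any tissue. No Cre-only group was analysed here, and the labels give the controls as wild type without further detail on the alleles. The number of littermates differs between the labels (7) and the methods (6), so tissue of several embryos may be pooled in a sample, and p-values measure the spread between samples only. The comparison asks how excess Dlx2 in the neural crest changes transcripts of the developing upper jaw.

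Total counts on genes ranged from 26155500 to 31308813 per sample. Dlx2 itself had CPM (read counts divided by the TMM-scaled library size) of 42.9, 35.0 and 45.2 in WT samples and 119, 131 and 123 in Dlx2OE samples. Values given for single samples follow the order of samples 1, 2 and 3 throughout. All 3 Dlx2OE samples were above all 3 WT samples, with a log2 fold change of 1.60 (SE 0.118, adjusted p = 0.00241 by edgeR's quasi-likelihood test). The count sums transcripts of the endogenous gene and of any cassette reads assigned to it. Reads assigned to no gene made up 5.34% to 5.79% of the WT libraries and 6.03%, 8.21% and 15.4% of the Dlx2OE libraries, so Dlx2OE sample 3 stood apart. Among 17514 genes tested, 6.45% were called at an adjusted p under 0.05, 2.99% upregulated and 3.46% downregulated in Dlx2OE, and the groups did not overlap for 34.1%. These calls depended on single libraries, with 79 genes called without WT sample 2 and 2091 without WT sample 3. DESeq2 called 2459 genes, against 1130 by edgeR.

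LIM-homeodomain proteins carry a pair of LIM domains, zinc-binding modules that bind other proteins, followed by a homeodomain that binds DNA. They act in complexes built on the adaptor protein Ldb1, and the mixture of LIM-homeodomain and LIM-only proteins competing for that adaptor sets which genes are bound. The family is best known for specifying neurons, limb, eye and pituitary. Lhx6 and Lhx8 are also expressed in neural crest mesenchyme of the first branchial arch under the influence of Fgf8 from the oral epithelium, and mice lacking both have cleft palate and lack molars.

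The homeobox, the DNA that encodes the homeodomain, is printed for the 4 members that were tested, because it shows how far the most similar genes can be told apart by sequence. Sequences were read 5′ to 3′ on the gene's strand from the longest coding transcript of GENCODE M21 (GRCm38, mm10), and capitals mark bases that differ from the partner gene. The homeobox of Lhx6 lies at chr2:36091095-36091647 on the reverse strand, split over 3 coding exons. The homeobox of Lhx8 lies at chr3:154311682-154321668 on the reverse strand, also over 3 exons. The homeobox of Lhx2 lies at chr2:38359966-38368883 on the forward strand, over 2 exons. The homeobox of Lhx9 lies at chr1:138831583-138832839 on the reverse strand, over 2 exons.
Lhx6: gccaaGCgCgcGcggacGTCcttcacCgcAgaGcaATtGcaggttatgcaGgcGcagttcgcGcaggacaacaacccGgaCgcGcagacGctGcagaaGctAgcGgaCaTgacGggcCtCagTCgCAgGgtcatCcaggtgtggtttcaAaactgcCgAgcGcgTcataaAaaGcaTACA
Lhx8: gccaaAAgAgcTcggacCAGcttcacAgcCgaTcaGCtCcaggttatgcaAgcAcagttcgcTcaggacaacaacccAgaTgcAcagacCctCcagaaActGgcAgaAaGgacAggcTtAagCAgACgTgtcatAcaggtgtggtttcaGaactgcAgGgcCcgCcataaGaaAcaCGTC
Lhx2: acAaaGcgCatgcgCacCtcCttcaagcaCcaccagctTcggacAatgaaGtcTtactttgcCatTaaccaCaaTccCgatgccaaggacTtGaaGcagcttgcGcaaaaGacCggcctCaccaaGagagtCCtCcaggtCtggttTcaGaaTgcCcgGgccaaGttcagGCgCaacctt
Lhx9: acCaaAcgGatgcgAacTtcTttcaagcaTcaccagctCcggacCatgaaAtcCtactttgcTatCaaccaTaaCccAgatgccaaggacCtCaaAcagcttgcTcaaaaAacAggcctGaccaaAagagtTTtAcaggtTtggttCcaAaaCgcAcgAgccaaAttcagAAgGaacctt
Lhx6 and Lhx8 shared 134 of 180 homeobox bases (74.4%), and Lhx2 and Lhx9 shared 143 of 180 (79.4%). Lhx1 with Lhx5 shared 144 and Lhx3 with Lhx4 shared 143 of 180. Over all annotated transcripts of each gene, the longest identical run was 14 bases between Lhx6 and Lhx8 and 17 bases between Lhx2 and Lhx9. It was 20 bases in each of the Lhx1 with Lhx5 and Lhx3 with Lhx4 pairs. Across all pairs of the 8 genes the longest run was 65 bases, between Lhx5 and Lhx9. These runs are shorter than a 150-base read.

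The genes lie on 5 chromosomes in GRCm38. Lhx6 (ENSMUSG00000026890) spans chr2:36081953-36105408 and Lhx8 (ENSMUSG00000096225) chr3:154306294-154330659. On chromosome 2, Lhx2 (ENSMUSG00000000247) spans chr2:38339281-38369733 and Lhx3 (ENSMUSG00000026934) chr2:26200212-26208289. Lhx9 (ENSMUSG00000019230) spans chr1:138825186-138848577 and Lhx4 (ENSMUSG00000026468) chr1:155698031-155751684. Lhx1 (ENSMUSG00000018698) spans chr11:84518284-84525535 and Lhx5 (ENSMUSG00000029595) chr5:120431699-120441223. Exons of another annotated gene overlapped 3 members. The antisense gene Gm27196 shared 188 bases with Lhx3 (6.17% of its exon length), the antisense gene Gm27199 shared 69 bases with Lhx5 (2.57%), and the short RNA Gm27953 shared 104 bases with Lhx6 (2.16%). None of these overlapping genes had more than 3 counts in a library.

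In WT maxillary processes, Lhx8 and Lhx6 were the highest of the 12 LIM-homeodomain genes per length. Lhx8 had 50.8 ± 9.51 CPM per kb of merged exons (SD, n = 3) and Lhx6 had 19.3 ± 2.46 (SD, n = 3). The values of Lhx8 did not overlap those of Lhx6, and those of Lhx6 did not overlap those of Isl1, the next in order. Isl1, a factor of pituitary, heart and sensory and motor neurons, followed at 6.95 ± 1.44 CPM per kb (SD, n = 3), overlapping Lhx2 at 5.28 ± 4.82 (SD, n = 3). Isl2, a motor and sensory neuron factor, had 3.85 ± 1.19 CPM per kb (SD, n = 3), which overlapped Lhx2. Lmx1a, a factor of roof plate and midbrain dopaminergic neurons, had 0.716 ± 0.558 CPM per kb (SD, n = 3), below every value of Isl2 and above every value of the genes that followed. Those were Lmx1b, Lhx5, Lhx3, Lhx1, Lhx9 and Lhx4, whose means ranged from 0.147 CPM per kb for Lmx1b down to 0.0192 for Lhx4. Among them only Lhx9 and Lhx4, the last pair in the order, did not overlap as neighbors. With the length of the longest coding transcript in place of merged exons, Lhx9 moved from place 11 to place 7, since its merged exons cover 9494 bases and its transcript 2065, while the first 6 places stayed as they were.

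Levels not divided by length placed the members within the whole transcriptome. The mean WT CPM of Lhx8 was above 90.6% of the genes tested and that of Lhx6 above 85.3%. For Lhx2 the figure was 55.2%, and for Lhx9 it was 4.37%.

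**Figure D1:**
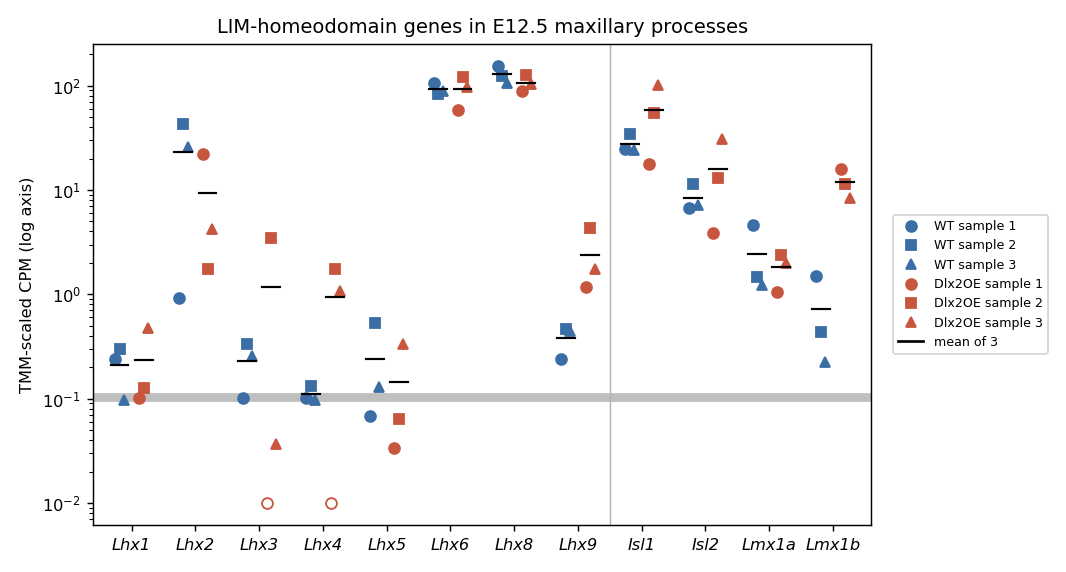
TMM-scaled CPM of the 8 Lhx genes (left) and the 4 other LIM-homeodomain genes (right) in each of the 3 WT and 3 Dlx2OE samples, on a log axis; black lines are means, the grey band is the level of 3 counts (0.0955 to 0.111 CPM), and open circles at the bottom are samples with 0 counts. Lhx6 and Lhx8 lie between 58.3 and 155 CPM in both genotypes, Lhx2 spreads from 0.923 to 43.1, and Lhx9 and Lmx1b are higher in every Dlx2OE sample than in any WT sample.

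Lhx6 and Lhx8, the pair that marks first arch mesenchyme, were not called changed in Dlx2OE. The CPM of Lhx6 was 106, 83.3 and 89.4 in WT samples and 58.3, 121 and 97.8 in Dlx2OE samples. Dlx2OE sample 1 was the lowest and Dlx2OE sample 2 the highest of the 6, so the groups overlapped. The means were 93.0 ± 11.8 CPM in WT and 92.5 ± 31.9 in Dlx2OE (SD, n = 3 per genotype), a log2 fold change of -0.0071 (SE 0.241, 95% interval -0.56 to 0.55, adjusted p = 0.987). The sign of this value depended on the scaling, since library size alone gave 0.068. The CPM of Lhx8 was 155, 125 and 107 in WT samples and 89.0, 126 and 104 in Dlx2OE samples. Dlx2OE sample 1 was again the lowest and WT sample 1 the highest, with overlap between genotypes. Lhx8 had means of 129 ± 24.1 CPM in WT and 106 ± 18.6 in Dlx2OE (SD, n = 3 per genotype), a log2 fold change of -0.28 (SE 0.171, 95% interval -0.67 to 0.12, adjusted p = 0.310). The interval leaves room for a change in Lhx6 of up to 0.56 on the log2 scale downward and in Lhx8 of up to 0.67 downward. In bulk tissue, fewer cells of a type and less RNA per cell cannot be told apart.

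The balance within the pair was read as the ratio of Lhx6 to Lhx8 counts inside each library, which does not depend on scaling. The log2 ratio was -0.54, -0.58 and -0.26 in WT samples and -0.61, -0.05 and -0.09 in Dlx2OE samples. Dlx2OE samples 2 and 3 were the highest and Dlx2OE sample 1 was the lowest, so the groups overlapped. The mean difference was 0.21 (exact two-sided permutation p = 0.4, adjusted p = 0.4 over 2 pairs, smallest p possible 0.1). As counts, Lhx6 stayed between 0.655 and 0.963 times Lhx8 in all 6 libraries.

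Mesenchyme markers were read beside this pair. The summed CPM of 8 facial mesenchyme markers, all of them tested, was 2486 to 3006 in WT and 3051 to 3492 in Dlx2OE with TMM scaling, without overlap. With library size alone the ranges were 2401 to 3090 and 3070 to 3587, which overlapped. Of the 8 markers, edgeR called 1 upregulated and 0 downregulated, beside 2.99% and 3.46% of all genes tested. At an unadjusted p under 0.05 there were 4, and DESeq2 called 3 upregulated and 1 downregulated. That last marker was Barx1, a gene of first arch mesenchyme, with an adjusted p of 0.0405 by DESeq2 and 0.153 by edgeR. Lhx6 and Lhx8 are also active in the mandibular part of the arch. Its 7 markers summed to 71.5 to 92.9 CPM in WT and 77.3 to 100 in Dlx2OE, with overlap. Hand1 had 4 counts in WT sample 1 and 0 elsewhere, while Hand2 had 199 to 622 counts per library. Of the 6 mandibular markers tested, edgeR called 0. DESeq2 called 1, Dlx4, upregulated (adjusted p = 0.00417, and 0.0648 by edgeR), with 1 to 16 counts in WT samples. The part of either cell population in the Lhx6 and Lhx8 values was not tested.

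The genes next to Lhx6 and Lhx8 gave no call either. Upstream of Lhx6, 10670 bp away, Rbm18 had a log2 fold change of -0.16 (adjusted p = 0.451), and on the other side Morn5, 2234 bp away, had 0 to 7 counts per library and was not tested. The non-coding gene AI606473 starts 161 bp from Lhx8 on the opposite strand and had 1829 to 2838 counts per library, with a log2 fold change of -0.03 (adjusted p = 0.902). On the other side of Lhx8, 34571 bp away, the choline transporter-like gene Slc44a5 had -0.0034 (adjusted p = 0.995).

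The genes whose pattern over the 6 samples was most like each of the pair were listed by the smallest root mean square difference of centred log2 CPM, over 13224 genes. For Lhx6 they were Mfsd2b at 0.0634, Thbs3 at 0.0733, Tm6sf1 at 0.0800, Spry3 at 0.0894 and Mir17hg at 0.106. For Lhx8 they were the imprinted gene Mest at 0.0516, the lysophosphatidic acid receptor gene Lpar1 at 0.0549, Clybl at 0.0623, the endothelial and progenitor surface gene Cd34 at 0.0670 and the ciliary gene Bbs2 at 0.0672. Lhx6 and Lhx8 differed from each other by 0.232, which placed Lhx8 at 322 in the order of Lhx6 and Lhx6 at 2960 in the order of Lhx8. These differences describe 6 libraries that share their depth and dissection, and carry no test.

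Lhx9, a factor of the developing gonad and diencephalon, was the member called upregulated, 1 of 4 tested, beside 2.99% of all genes tested. Its counts were 7, 14 and 14 in WT samples and 35, 135 and 47 in Dlx2OE samples. Each Dlx2OE sample exceeded each WT sample, and Dlx2OE sample 2 was the highest. In CPM the means were 0.384 ± 0.126 in WT and 2.41 ± 1.66 in Dlx2OE (SD, n = 3 per genotype), a 6.20-fold difference and a log2 fold change of 2.63 (SE 0.551, 95% interval 1.36 to 3.90, adjusted p = 0.0356). The call was lost when any 1 WT sample, Dlx2OE sample 2 or Dlx2OE sample 3 was left out, with adjusted p up to 0.136, and was kept without Dlx2OE sample 1 (adjusted p = 0.0131). The fold change stayed between 1.91 and 2.95 on the log2 scale in those fits. DESeq2's Wald test gave an adjusted p of 0.000233. Lhx9 passed the filter on low counts only with the Dlx2OE samples, since WT sample 1 was too low, so the count of 1 among 4 tested members is a description. At its highest, in Dlx2OE sample 2, Lhx9 reached 4.30 CPM, against 121 CPM for Lhx6 in the same library.

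Lhx2, a factor of the eye, forebrain, olfactory epithelium and hair follicle, had the widest spread of the tested members. Its CPM was 0.923, 43.1 and 25.6 in WT samples and 22.3, 1.75 and 4.25 in Dlx2OE samples. WT sample 1 was the lowest of all 6 and WT sample 2 the highest, a 46.7-fold range inside 1 genotype, so the groups overlapped. The SD of log2 CPM among WT samples, 2.95, was larger than that of 99.9% of the genes tested, and the 1.84 among Dlx2OE samples was larger than that of 99.2%. For comparison, the SD among WT samples was 0.180 for Lhx6, 0.267 for Lhx8 and 0.447 for Lhx9. The log2 fold change of Lhx2 was -1.30 (SE 1.18, 95% interval -4.02 to 1.42, adjusted p = 0.485), so a change in either direction was not detectable with this spread.

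Genes of the anterior brain and eye that varied together with Lhx2 were picked out of the marker lists after their values were seen. Pax6, a factor of eye, forebrain and nasal ectoderm, had CPM of 0.991, 8.83 and 6.57 in WT samples and 7.90, 2.64 and 2.95 in Dlx2OE samples. Six3, a factor of eye and rostral forebrain, had 6.29, 23.9 and 13.4 in WT samples and 14.1, 1.46 and 2.10 in Dlx2OE samples. For Lhx2, Pax6 and Six3 alike, WT samples 2 and 3 and Dlx2OE sample 1 were the 3 highest libraries. Otx2, a head and forebrain factor, had 3.42, 30.7 and 17.9 CPM in WT samples and 3.92, 0.732 and 1.07 in Dlx2OE samples. For Otx2, too, those 3 libraries were the highest. The summed CPM of 6 eye markers was 7.18, 25.1 and 14.3 in WT samples and 14.3, 5.89 and 4.98 in Dlx2OE samples, with the same 3 libraries the highest. The order was another over the whole brain and olfactory lists. The summed CPM of 8 brain progenitor markers was 28.3, 75.6 and 52.2 in WT samples and 65.3, 83.2 and 158 in Dlx2OE samples, with Dlx2OE sample 3 the highest. The 4 olfactory markers summed to 80.3, 108 and 121 CPM in WT samples and 24.0, 58.9 and 70.8 in Dlx2OE samples, lower in every Dlx2OE sample. The part of these tissues in the Lhx2 values was not tested.

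The balance between Lhx2 and Lhx9 was read in the same way. The log2 ratio of Lhx2 to Lhx9 counts was 1.87, 6.48 and 5.78 in WT samples and 4.22, -1.29 and 1.28 in Dlx2OE samples. Lhx9 exceeded Lhx2 only in Dlx2OE sample 2, and the groups overlapped. The mean difference was -3.31 (exact two-sided permutation p = 0.2, adjusted p = 0.4 over 2 pairs).

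**Figure D2:**
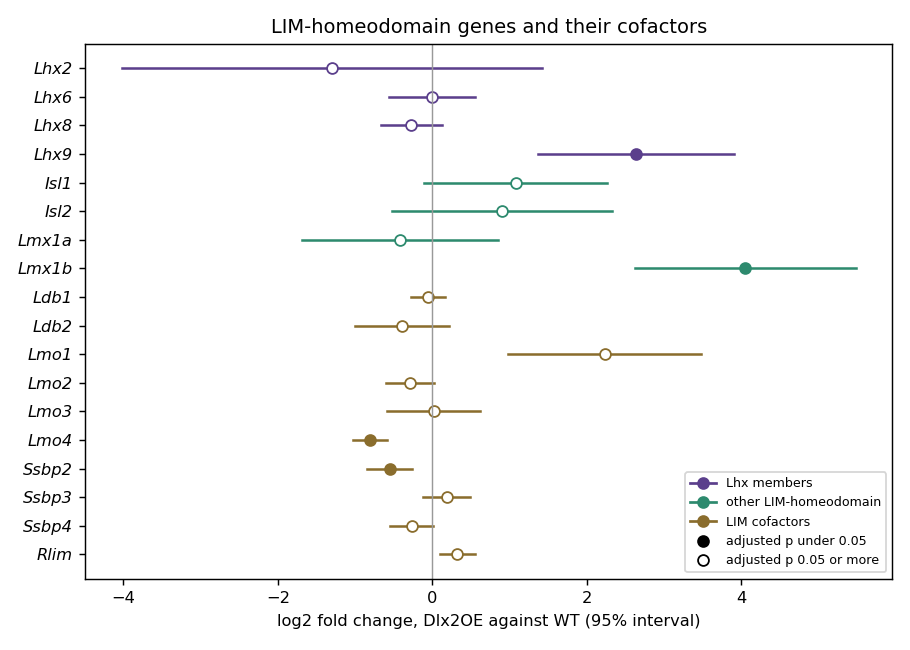
Log2 fold change of Dlx2OE against WT with its 95% interval for the 4 tested Lhx genes, the 4 other LIM-homeodomain genes and 10 LIM cofactors; filled points had an adjusted p under 0.05. Lhx9 and Lmx1b lie at 2.63 and 4.05, Lmo4 and Ssbp2 lie at -0.81 and -0.55, and the interval of Lhx2 runs from -4.02 to 1.42.

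Lhx3 and Lhx4, which act in the pituitary and in motor neurons, were close to background in WT. Lhx3 had 3, 10 and 8 counts in WT samples and 0, 109 and 1 in Dlx2OE samples. Lhx4 had 3, 4 and 3 counts in WT samples and 0, 55 and 29 in Dlx2OE samples. Dlx2OE sample 2 was the highest for both genes, Dlx2OE sample 1 had no read of either, and the groups overlapped. Neither passed the filter on low counts. DESeq2, run without that filter, gave Lhx4 an adjusted p of 0.0449. With edgeR, Lhx4 was called when Dlx2OE sample 1, its library at 0, was left out, but it then passed the filter only through the other Dlx2OE samples, where it was high, so that call does not support a change.

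Early pituitary and eye markers that were high in the same library were again picked after their values were seen. Hesx1, an anterior pituitary and forebrain repressor, had 8, 3 and 3 counts in WT samples and 4, 54 and 1 in Dlx2OE samples. Six6, a retina and pituitary factor, had 15, 19 and 6 in WT samples and 0, 101 and 7 in Dlx2OE samples. Dlx2OE sample 2 held the highest count of both genes, as it did for Lhx3 and Lhx4. The hormone genes did not show this order, since Pomc had 47, 88 and 53 counts in WT samples and 39, 31 and 28 in Dlx2OE samples, and the lineage factor Pou1f1 had 0 or 1 count in every library. Summed over the 5 pituitary markers, 2 of them tested and neither called, CPM was 2.31 to 3.92 in WT and 1.26 to 4.78 in Dlx2OE. Whether pituitary tissue contributed to the Lhx3 and Lhx4 counts was not tested.

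Lhx1, a factor of the early head and kidney, and Lhx5, a forebrain factor, stayed near the floor in both genotypes. Lhx1 had 7, 9 and 3 counts in WT samples and 3, 4 and 13 in Dlx2OE samples. Lhx5 had 2, 16 and 4 counts in WT samples and 1, 2 and 9 in Dlx2OE samples. Both overlapped between genotypes, and no difference was detectable at this depth.

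**Figure D3:**
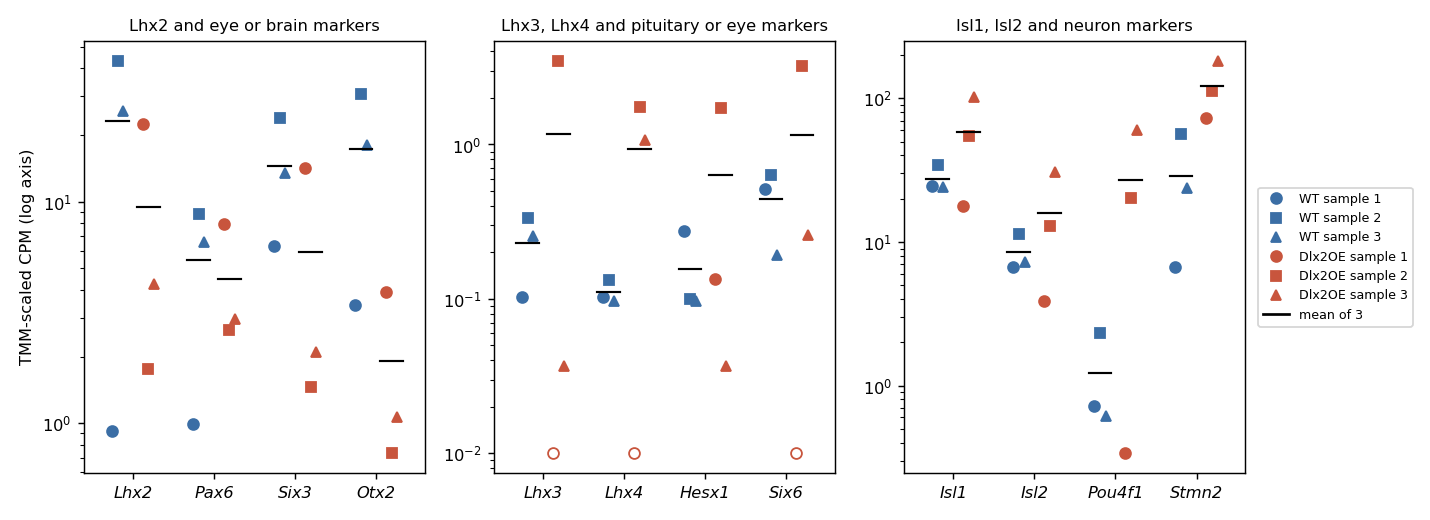
TMM-scaled CPM on a log axis in the 3 WT and 3 Dlx2OE samples, for Lhx2 with eye or brain markers, for Lhx3 and Lhx4 with pituitary or eye markers, and for Isl1 and Isl2 with neuron markers; black lines are means, and open symbols at the bottom are samples with 0 counts. Lhx2 is high in WT samples 2 and 3 and Dlx2OE sample 1, Lhx3 and Lhx4 are highest in Dlx2OE sample 2, and Isl1 and Isl2 are highest in Dlx2OE sample 3.

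Of the 4 other LIM-homeodomain genes, 1 was upregulated and none downregulated, beside 2.99% and 3.46% of all genes tested. Lmx1b, a factor of dorsal limb and of midbrain and serotonergic neurons, had 1.50, 0.431 and 0.225 CPM in WT samples and 16.0, 11.3 and 8.42 in Dlx2OE samples. Each Dlx2OE sample lay above each WT sample. Its log2 fold change was 4.05 (SE 0.620, adjusted p = 0.0160), and the call held in 5 of the 6 fits that left out 1 sample. Lmx1b, like Lhx9, passed the filter only with the Dlx2OE samples, where it was high. The count of 1 among these 4 genes is therefore a description. The related gene Lmx1a had a log2 fold change of -0.42 (adjusted p = 0.631), which turned to 0.43 without WT sample 1. Isl1 had CPM of 24.5, 34.1 and 24.0 in WT samples and 17.8, 54.4 and 102 in Dlx2OE samples. Dlx2OE sample 3 was the highest and Dlx2OE sample 1 the lowest, and the log2 fold change of 1.08 was not called (SE 0.515, adjusted p = 0.203). Without Dlx2OE sample 1 it was 1.50 and called (adjusted p = 0.0170), and without Dlx2OE sample 3 it was 0.39. Isl2 had the same highest and lowest samples and a log2 fold change of 0.90 (adjusted p = 0.355), which was -0.0067 without Dlx2OE sample 3.

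Neuron markers stood in the same order in the Dlx2OE samples. The summed CPM of 6 sensory neuron markers was 5.74, 46.8 and 15.8 in WT samples and 11.3, 92.6 and 263 in Dlx2OE samples. The sum of 8 pan-neuronal markers was 84.5, 353 and 206 in WT samples and 198, 684 and 1543 in Dlx2OE samples. All 6 sensory and all 8 pan-neuronal markers were tested, and each list had a median log2 fold change above 0, 2.63 for the sensory and 1.87 for the pan-neuronal list. The edgeR test called 0 of them at an adjusted p under 0.05 and 3 of each list had an unadjusted p under 0.05, while DESeq2 called 1, the sensory neuron factor Pou4f1 (adjusted p = 0.0295). Without Dlx2OE sample 1, edgeR called 4 of the sensory and 4 of the pan-neuronal markers, all higher in Dlx2OE. The part of ganglion or nerve tissue in the Isl1, Isl2, Lhx4 and Lhx9 values was not tested.

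For the cofactors through which these proteins act, edgeR called 2 of 10 tested genes downregulated and 0 upregulated. Over all genes tested, 3.46% were downregulated and 2.99% upregulated. At an unadjusted p under 0.05 there were 4 cofactors, and DESeq2 called 2 downregulated and 1, Lmo1, upregulated. Lmo4, a LIM-only protein that competes for Ldb1, had CPM of 267, 272 and 248 in WT samples and 142, 155 and 153 in Dlx2OE samples. The WT samples were all above the Dlx2OE samples, with a small spread in each genotype. The log2 fold change was -0.81 (SE 0.0965, adjusted p = 0.00929), and Lmo4 was called in all 6 fits that left out 1 sample. Ssbp2, a single-stranded DNA-binding protein that stabilises the Ldb1 complex, had CPM of 166, 146 and 127 in WT samples and 92.3, 109 and 97.3 in Dlx2OE samples. It was lower in every Dlx2OE sample, with a log2 fold change of -0.55 (SE 0.124, adjusted p = 0.0422), and was called in 1 of the 6 fits that left out 1 sample.

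Ldb1, the adaptor itself, had a log2 fold change of -0.06 (95% interval -0.28 to 0.17, adjusted p = 0.726) that changed sign with library size alone, at 0.013. Its relative Ldb2 had -0.40 (adjusted p = 0.343). Lmo1, another LIM-only protein, had CPM of 1.84, 4.18 and 3.78 in WT samples and 28.9, 8.79 and 8.38 in Dlx2OE samples. Its groups did not overlap, with Dlx2OE sample 1 far above the rest, and the log2 fold change of 2.23 had an adjusted p of 0.0511 (SE 0.542). Lmo1 was past the threshold with DESeq2 (adjusted p = 0.0139), library size alone (0.0498), no filter (0.0032) and 10 counts in every sample (0.0461). Without Dlx2OE sample 1 the log2 fold change was 1.38 (adjusted p = 0.0375), and without any other single sample the adjusted p was 0.0592 to 0.156. Rlim, a ubiquitin ligase that targets Ldb1 and LIM-homeodomain proteins, had 0.32 (adjusted p = 0.0851). The log2 fold changes of Lmo2, Lmo3, Ssbp3 and Ssbp4 ran from -0.29 for Lmo2 to 0.19 for Ssbp3, with adjusted p of 0.184 to 0.972, and Lmo3 changed sign between fits. The groups did not overlap for 6 of the 10 cofactors, beside 34.1% of all genes, and the list's median log2 fold change was -0.16 beside 0.0028 for all genes.

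Ligands, receptors, feedback genes and factors tied to Lhx6 and Lhx8 expression in the first arch were read as a list of 16, all tested. Of these, 1 was upregulated and 2 downregulated, beside 2.99% and 3.46% of all genes tested. The upregulated gene was Dlx2, the overexpressed gene. Fgf9, an epithelial growth factor, had CPM of 14.0, 20.3 and 14.4 in WT samples and 10.6, 7.04 and 6.90 in Dlx2OE samples. All WT samples were above all Dlx2OE samples, and the log2 fold change was -0.99 (SE 0.235, adjusted p = 0.0479). Etv4, an FGF-responsive transcription factor, had a log2 fold change of -0.51 (SE 0.118, adjusted p = 0.0449), and its relative Etv5, at -0.53 (adjusted p = 0.0511), just missed the threshold. The calls of Fgf9 and Etv4 were each kept in 1 of the 6 fits that left out 1 sample. Fgf8, the ligand known to induce Lhx6 and Lhx8, had CPM of 7.48, 3.98 and 2.95 in WT samples and 1.45, 4.01 and 2.25 in Dlx2OE samples. Its groups overlapped, and the log2 fold change of -0.90 was not called (SE 0.457, adjusted p = 0.228). Epithelium varied between libraries, with a summed CPM of 8 epithelial markers of 661 to 1145 in WT and 506 to 1605 in Dlx2OE. The markers did not move together. The simple-epithelium keratin gene Krt8 was lower in every Dlx2OE sample (log2 fold change -2.11, adjusted p = 0.00939), as was its partner Krt18 (-1.85, adjusted p = 0.0233). The basal keratin gene Krt5 was higher in every Dlx2OE sample, most of all in sample 1, and was not called (1.91, adjusted p = 0.0792). The part of the epithelium in the Fgf values was not tested. The median log2 fold change of the list was -0.27.

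Palate and tooth mesenchyme genes, the setting in which Lhx6 and Lhx8 act, gave 1 upregulated and 3 downregulated of 10 tested. Over all genes tested, 2.99% were upregulated and 3.46% downregulated. Msx2, a homeobox gene of tooth and skull mesenchyme, had CPM of 5.84, 8.46 and 9.94 in WT samples and 35.9, 24.4 and 18.1 in Dlx2OE samples, a log2 fold change of 1.69 (SE 0.289, adjusted p = 0.0211). Pax9, needed for palate and teeth, had 89.6, 93.2 and 117 in WT samples and 37.3, 51.1 and 51.8 in Dlx2OE samples, a log2 fold change of -1.10 (SE 0.161, adjusted p = 0.0141). Tbx22, a T-box gene whose human counterpart is mutated in X-linked cleft palate, had 63.4, 46.1 and 42.5 in WT samples and 18.4, 26.7 and 19.2 in Dlx2OE samples, a log2 fold change of -1.24 (SE 0.200, adjusted p = 0.0185). For each of these genes no Dlx2OE sample overlapped a WT sample. Cdkn1c, a cell cycle inhibitor, had a log2 fold change of -0.71 (SE 0.128, adjusted p = 0.0253). Msx2, Tbx22 and Cdkn1c were each called in 3 of the 6 fits that left out 1 sample, and Pax9 in 5. The median of the list was -0.41, and 8 of its 10 genes had a value below 0. This list was chosen with earlier results on Dlx2OE palate genes known, so its direction is not independent evidence.

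Regulators and products of forebrain neurons in which Lhx6 or Lhx8 act gave 1 upregulated gene of 10 tested, beside 2.99% of all genes tested. Sst, the neuropeptide somatostatin made by Lhx6-dependent interneurons, had 0, 7 and 2 counts in WT samples and 145, 84 and 121 in Dlx2OE samples. All Dlx2OE samples were far above the WT samples. The Dlx2OE mean was 4.01 ± 1.18 CPM (SD, n = 3), and no WT sample exceeded 0.232 CPM. The log2 fold change was 5.28 (SE 0.704, adjusted p = 0.0116), a fitted value that rests on a WT group near the floor. Sst passed the filter on low counts only through the Dlx2OE samples, where it was high, so its place among the tested genes already rested on that difference. Ackr3, a chemokine receptor that guides migrating interneurons, had a log2 fold change of -0.41 (adjusted p = 0.133). Maf, an interneuron and lens factor, had a log2 fold change of -0.46 (adjusted p = 0.161). The median of the list was 0.10.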

How the data were processed

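RNA-seq of E12.5 maxillary processes gave 1 file for each of 3 WT and 3 Dlx2OE samples, grouped by the sample labels. The submitters' processing notes name FastQC, STAR 2.7.3a and HTSeq 0.12.4. The authors mapped reads to mm10 and deposited raw counts per gene without normalization, and the annotation release and strand setting are not given in the sources used here. Symbols and exon lengths came from GENCODE M21, which matched 53706 of 53801 identifiers. Lines for unassigned reads stayed out of library sizes and tests.

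The main test used edgeR 4.0.16 under R 4.3.3. After filterByExpr (minimum count 10) and TMM scaling, genotype was tested by the quasi-likelihood F test with Benjamini-Hochberg adjustment over 17514 genes. Log2 CPM used a prior count of 2, paralog ratios added 0.5 to each count, and the floor of 3 counts covers counting error only. The scripts were tested on simulated data. The alternatives were DESeq2 1.42.0, RLE factors, library size alone, no filter, 10 counts in every sample, a replicate block, a fold threshold and leaving out each sample.

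The members and lists were chosen with earlier results of these data known. Named genes are all members, the other LIM-homeodomain genes, all cofactors and, from each further list, the called genes or the 4 with the smallest p. Fgf8 was added after values were seen. A few genes meeting these criteria are left out of the text. For Lhx6 and Lhx8, their neighboring genes and the 5 genes most alike in pattern, with a mean log2 CPM of at least 1, are also named.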

Additional observations from a re-analysis of the deposited data

Results flagged for a closer look

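The share of reads assigned to no annotated gene lies outside the comparisons of the report. It was 6.032%, 8.213% and 15.41% in Dlx2OE samples 1 to 3, each above the highest WT value of 5.79%.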

How the results depend on the processing

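Lhx8 and Lhx2 were not called under any alternative that was run, and Lhx9 was removed by a minimum of 10 counts in every sample. Lhx6 changed sign, at 0.068 with library size alone and between -0.25 and 0.23 when 1 sample was left out. Lhx9 lay between 1.91 and 2.95 when 1 sample was left out and lost its call in 5 of those 6 fits. With the length of the longest coding transcript, Lhx6 was at 27.8 and Lhx8 at 62.0 CPM per kb in WT.

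All genes called numbered 1130, 2459 with DESeq2, 2044 without the filter, 546 with a log2 fold change above 1 or below -1 added, and 79 to 2091 when 1 sample was left out. Calls among the Lhx members numbered 2 with DESeq2, 0 with 10 counts in every sample and 0 to 2 when 1 sample was left out. The minimum of 10 counts in every sample left 0 calls among the other LIM-homeodomain genes and 0 in the forebrain list, which had 2 without the filter. First arch genes called numbered 5 with DESeq2, 5 without the filter, 1 with library size alone and 1 with the fold threshold, which left 0 cofactors. Leaving out 1 sample gave 0 to 3 calls for the other LIM-homeodomain genes, 1 to 3 for cofactors, 1 to 3 for first arch genes, 0 to 5 for palate and tooth genes and 1 to 3 for forebrain genes. Signs also changed for Ldb1 with library size alone (0.013), for Lmo3 without the filter (-0.0034), and when 1 sample was left out for Lmo3 (-0.20 to 0.16), Isl2 (-0.0067 to 1.35) and Lmx1a (-0.75 to 0.43). The causes were not tested.

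The replicate numbers did not pair the samples, since deviations of same-numbered samples correlated at -0.072, -0.21 and 0.073. With the replicate block 961 genes were called, among them 1 Lhx member, 1 cofactor and 1 first arch gene.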

Other observations

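The genes most like Lhx2 and Lhx9 in pattern were looked up after the values of Lhx2 and Lhx9 had been seen, with the measure used for Lhx6 and Lhx8. For Lhx2 they were Atp8b4 at a root mean square difference of 0.820, the stereocilia gene Espn at 0.903, Sp8, a factor of forebrain and craniofacial ectoderm, at 1.01, Pax6 at 1.05 and Gm13648 at 1.07. For Lhx9 they were Irs4 at 0.448, the glutamate receptor gene Gria2 at 0.486, Zfhx3 at 0.579, the neural POU factor Pou3f4 at 0.586 and the protocadherin gene Pcdh10 at 0.591. The closest gene to Lhx2 lay 0.820 away, against 0.0634 for Lhx6.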
